A study of Mus musculus with 4 samples.

Results

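Histones package DNA, and male germ cells replace most of them, first with variant histones and then with transition proteins and protamines. The 10 genes described here encode variants that act along this path or that stand in for canonical histones outside S phase. They are Hist1h1t, Hist1h2ba, Hist1h2aa, H2afx, H2afz, H2afy, H3f3a, H3f3b, H1f0 and H2al2a, taken by symbol, and all 10 were found among the 55450 genes of the deposited matrices. Their unique molecular identifiers (UMIs, each standing for 1 captured RNA molecule) were followed across germ-cell stages and somatic cell types of the mouse testis, and between 2 diets.

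The samples were 2 droplet single-cell RNA libraries of testis from mice labelled high-fat diet (HFD 1 and HFD 2) and 2 from mice labelled normal diet (ND 1 and ND 2). All 4 were prepared from dissociated testis with the same 3' chemistry. Strain, age, diet composition and feeding time are not given in the sources used here. The labels do not say whether each library came from a separate mouse or a pool, so the spread between libraries, on which the p-values rest, may be partly technical.

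Canonical histone genes are expressed mostly during DNA replication, and their RNA ends in a stem-loop in place of a poly(A) tail. Variant genes are read at other times and mostly give polyadenylated RNA, the kind that 3' capture from the poly(A) tail counts. In meiosis H2AX, the product of H2afx, is phosphorylated at DNA breaks and over the unpaired sex chromosomes. In spermatids, testis H2A and H2B variants accompany the opening of nucleosomes before protamines take over.

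Among the gene models of these 10 genes, the histone stem-loop was found in 2, and its letters are shown because both genes can give RNA that poly(A) capture may miss. The models of Hist1h2ba (384 bases) and Hist1h2aa (390 bases) hold coding length only, so the search did not reach the 3' end of these 2 genes. The stem-loop was searched as a 16-base consensus with set variable positions, so other hairpins were not looked for. In both matches 6 bases pair with 6 bases around a loop, and the paired arms are in capitals (GRCm38).

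Hist1h1t, chr13:23696525-23696540, plus strand: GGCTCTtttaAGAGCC

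H2afx, chr9:44335240-44335255, plus strand: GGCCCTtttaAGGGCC

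The GENCODE model ran 185 bases beyond the stem-loop in Hist1h1t and 822 bases beyond it in H2afx. UMIs of these genes are therefore read here as RNA with a poly(A) tail, and no measure of RNA ending at the stem-loop. Read positions and priming inside the RNA were not examined. The RefSeq gene of Hist1h1t ends at chr13:23696545, close behind the stem-loop. The RefSeq genes of Hist1h2ba and Hist1h2aa run 48 and 62 bases further 3' than the GENCODE models. Those bases were not searched here, and reads in them may not have been counted.

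Hist1h2ba and Hist1h2aa face away from each other on chromosome 13 with 305 bases between them. The 250 bases before the start of Hist1h2ba are shown because both genes share most of them (220 bases) and both peaked at the same stage below (RefSeq promoter table, GRCm38.p6, where 9 of the 10 genes had an entry). The motifs searched on both strands were the histone octamer ATTTGCAT, the CCAAT box CCAAT, the TATA box TATAAA, the cyclic AMP element TGACGTCA and the GC box GGGCGG, and matches are in capitals. No motif overlapped another in this window.

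Hist1h2ba, chr13:23934157-23934406, minus strand: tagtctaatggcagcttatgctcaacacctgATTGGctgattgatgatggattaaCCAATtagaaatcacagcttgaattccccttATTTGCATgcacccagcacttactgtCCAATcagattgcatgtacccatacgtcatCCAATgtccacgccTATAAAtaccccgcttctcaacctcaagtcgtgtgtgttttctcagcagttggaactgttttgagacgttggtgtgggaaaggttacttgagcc

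This window held 1 octamer, 4 CCAAT boxes and 1 TATA box. Of all 32851 windows of this length, 1.60% held the octamer, 33.8% a CCAAT box, 12.4% the TATA box, 1.55% the cyclic AMP element and 32.7% the GC box. The window of H3f3b held the same set of matches (1 octamer, 4 CCAAT boxes, 1 TATA box). That of H3f3a, the other H3.3 gene, held 1 CCAAT box and 4 GC boxes and had 77.2% G and C. Both H3.3 windows overlap exons of GENCODE coding models of their own genes, which the Hist1h2ba window does not. A match describes letters and shows no binding.

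The window of Hist1h1t, the linker histone gene of spermatocytes, held 1 CCAAT box and 1 GC box. Only exact letters were counted, and other forms of the TATA box were not searched.

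Hist1h1t, chr13:23695561-23695810, plus strand: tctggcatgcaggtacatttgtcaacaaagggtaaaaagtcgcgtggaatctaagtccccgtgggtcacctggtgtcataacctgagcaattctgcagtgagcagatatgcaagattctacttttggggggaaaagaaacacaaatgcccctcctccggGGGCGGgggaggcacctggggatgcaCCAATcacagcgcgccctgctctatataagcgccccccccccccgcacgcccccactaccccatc

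The 4 libraries held 13561 to 15290 barcodes and 143748262 to 154221188 UMIs each, and 54917 cells were kept after filtering. Library pairs shared 42 to 65 barcodes, at most 0.465% of the smaller library. Clustering without the histone genes gave 30 clusters. Marker genes named 34788 cells: spermatogonia-like (214 cells), early spermatocyte-like (676), pachytene-like (6445), late spermatocyte-like (2014), round spermatid-like (14248), elongating spermatid-like (7997), Leydig-like (1162), Sertoli-like (1225), macrophage-like (360), lymphocyte-like (283), fibroblast-like (136) and endothelial-like (28). The other 20129 cells stayed unnamed, most of them at low depth. Within a stage, clusters are numbered from earlier to later marker scores. Early spermatocyte 2, round spermatid 3 and elongating spermatid 3 had low depth, with only 2102, 2033 and 1995 median UMIs per cell. Levels below are CPM, a gene's share of the UMIs scaled to the usual fixed library total, over all cells of a class in a library, with the SD over the 4 libraries, and orders of classes are descriptions with no test.

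The 10 genes fell into a meiotic group, an H3.3 pair with a second high point after meiosis, a late spermatid gene and a linker histone led by Leydig-like cells. The linker histone of spermatocytes, H1t, is encoded by Hist1h1t. Its level in pachytene-like cells was 96.8 and 90.9 CPM in HFD 1 and HFD 2 and 95.8 and 92.2 CPM in ND 1 and ND 2 (93.9 ± 2.81, SD, n = 4). All 4 libraries lay above every library of the next class, early spermatocyte-like (61.2 ± 10.1 CPM), and the ratio of the means was 1.53. It was highest in the cluster pachytene 1 (130 ± 6.92 CPM), lower in pachytene 2 (67.2 ± 3.42) and lower again in late spermatocyte-like cells (19.9 ± 2.83). Elongating spermatid-like cells had 7.44 ± 1.00 CPM, and Leydig-like cells, which should lack this gene, 8.49 ± 1.61. Other somatic classes had more, with 30.9 ± 13.4 in lymphocyte-like (19 UMIs), 26.2 ± 15.1 in macrophage-like (29 UMIs) and 16.2 ± 3.76 in Sertoli-like cells. Libraries of these classes overlapped those of late spermatocyte-like cells. Round spermatid-like cells had 13.4 ± 0.119. The part of RNA from other cells in these levels was not tested. With histone genes kept in the clustering no late class was named, the pachytene-like class then averaged 55.5 CPM, and early spermatocyte-like cells led with 61.2.

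**Figure D1:**
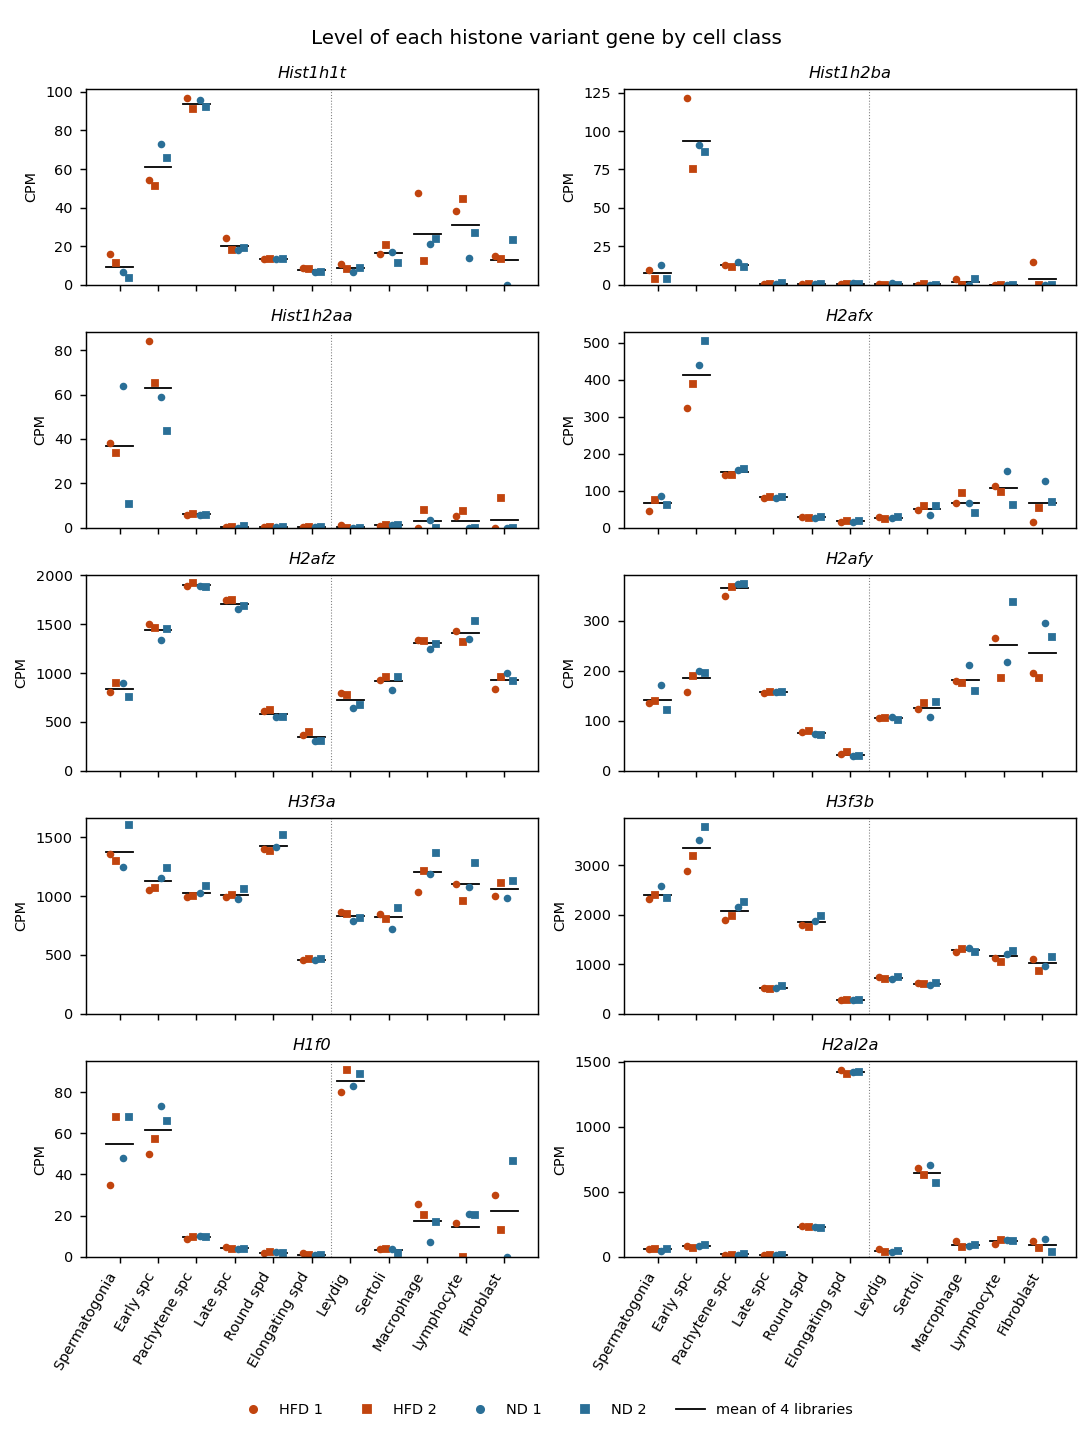
Level of each of the 10 genes in CPM (vertical axes, from 0) in 11 marker-defined classes (horizontal axis, germ cells left of the dotted line), 1 point per library, coloured by diet. Hist1h2ba, Hist1h2aa, H2afx and H3f3b were highest in early spermatocyte-like cells, Hist1h1t, H2afz and H2afy in pachytene-like cells, H3f3a in round and H2al2a in elongating spermatid-like cells, and H1f0 in Leydig-like cells.

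Hist1h2ba and Hist1h2aa encode the testis H2B and H2A variants TH2B and TH2A, which form nucleosomes of meiotic and later germ cells. Both were highest in early spermatocyte-like cells. Hist1h2ba reached 121, 75.3, 90.7 and 86.3 CPM there in HFD 1, HFD 2, ND 1 and ND 2 (93.4 ± 19.7), 7.44 times the pachytene-like mean (12.6 ± 1.72) with no overlap of libraries. Most of it lay in the cluster early spermatocyte 3 (135 ± 40.6 CPM). Sertoli markers gave the second score there (0.72 beside 1.35 for early spermatocyte markers), as in early spermatocyte 2 (0.93 beside 1.37), and their part in these values was not tested. The low-depth early spermatocyte 2 held 7 UMIs of the gene in all libraries and 0 in HFD 2. From early spermatocyte 3 it stood 5.54 times lower in pachytene 1, another 6.29 times lower in pachytene 2 and 6.09 times lower again in late spermatocyte-like cells, with no overlap at any of these steps.

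Hist1h2aa reached 84.0, 65.0, 58.8 and 43.6 CPM in early spermatocyte-like cells (62.9 ± 16.7). Its next class was spermatogonia-like (36.6 ± 21.8 CPM), with overlapping libraries, where Hist1h2ba averaged 7.40 ± 4.51. In pachytene-like cells it averaged 5.98 ± 0.289 CPM. The neighbouring pair thus shared the early spermatocyte-like peak, and only Hist1h2aa had spermatogonia-like levels that overlapped its peak. Both rest on few molecules, 2541 UMIs of Hist1h2ba and 1386 of Hist1h2aa in all libraries.

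H2afx encodes H2AX. Early spermatocyte-like cells had 324, 388, 441 and 505 CPM in HFD 1, HFD 2, ND 1 and ND 2 (415 ± 77.3), and pachytene-like cells followed at 150 ± 9.25 CPM, 2.76 times lower with no overlap. The high value belonged to early spermatocyte 3 (569 ± 77.9 CPM), since early spermatocyte 1 and the low-depth early spermatocyte 2 had 79.7 ± 23.7 and 81.5 ± 10.6, near the spermatogonia-like level of 66.6 ± 18.1. It had 82.4 ± 1.42 CPM in late spermatocyte-like and 17.3 ± 1.79 in elongating spermatid-like cells. Counted as UMIs per cell, pachytene-like cells led instead, with 3.42, and they had library medians of 20949 to 25693 UMIs per cell against 2881 to 3613 in early spermatocyte-like cells.

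H2afz encodes H2A.Z, a variant placed at promoters by dedicated exchange complexes. Pachytene-like cells had 1894, 1922, 1892 and 1884 CPM (1898 ± 16.4), the 4 libraries differing by little. Late spermatocyte-like cells followed at 1708 ± 45.9 CPM and early spermatocyte-like cells at 1437 ± 73.0. After meiosis the level was 585 ± 39.1 CPM in round and 341 ± 46.0 in elongating spermatid-like cells, the lowest of the 11 classes. Lymphocyte-like (1406 ± 96.9) and macrophage-like cells (1304 ± 40.3) stood close to the early spermatocyte-like level. As UMIs per cell, late spermatocyte-like cells led with 55.8.

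H2afy encodes macroH2A1, a variant with a large globular domain that is found on silent chromatin, including the sex chromosomes of spermatocytes. Pachytene-like cells had the highest level (366 ± 11.5 CPM), 1.45 times lymphocyte-like cells (252 ± 66.1) with no overlap. The cluster pachytene 1 had 489 ± 5.75 CPM, 2.29 times early spermatocyte 3, and pachytene 2 had 276 ± 5.75. Elongating spermatid-like cells were lowest, at 32.1 ± 3.79. Hist1h1t and H2afy thus both peaked in pachytene 1, whereas Hist1h2ba, H2afx and H3f3b peaked 1 cluster earlier, in early spermatocyte 3.

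H3f3a and H3f3b encode the same protein, H3.3, which is placed on chromatin outside replication. Their patterns differed. H3f3b was highest in early spermatocyte-like cells, with 2893, 3182, 3518 and 3779 CPM in HFD 1, HFD 2, ND 1 and ND 2 (3343 ± 387), all above the spermatogonia-like libraries (2402 ± 118). From early spermatocyte 3 (4426 ± 299.9) it stood lower through pachytene 1 (3245 ± 149) and pachytene 2 (1208 ± 70.8) to late spermatocyte-like cells, whose libraries had 522, 510, 526 and 555 CPM (528 ± 19.1). It was then higher in round spermatid 1 (1032 ± 29.3), round spermatid 2 (1697 ± 79.7), round spermatid 4 (2486 ± 86.3) and round spermatid 5 (2213 ± 106). The next cluster, elongating spermatid 1, had 258 ± 12.7 CPM, 8.56 times lower than round spermatid 5. None of these steps had overlapping libraries, and the low-depth round spermatid 3 (1193 ± 103) was out of this order.

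H3f3a moved over a narrower range. Its highest class was round spermatid-like, with 1397, 1382, 1413 and 1523 CPM (1429 ± 63.9), but its libraries overlapped those of spermatogonia-like cells (1376 ± 159). Early spermatocyte-like (1129 ± 86.6), pachytene-like (1026 ± 43.7) and late spermatocyte-like cells (1008 ± 34.4) overlapped their neighbours in this order. Elongating spermatid-like cells had 459 ± 5.51 CPM, the lowest class. From round spermatid 5 to elongating spermatid 1 H3f3a was 2.23 times lower (1300.3 ± 41.7 to 582 ± 6.81). Per cell, late spermatocyte-like cells led for H3f3a (32.7 UMIs) and pachytene-like cells for H3f3b (47.2 UMIs).

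**Figure D2:**
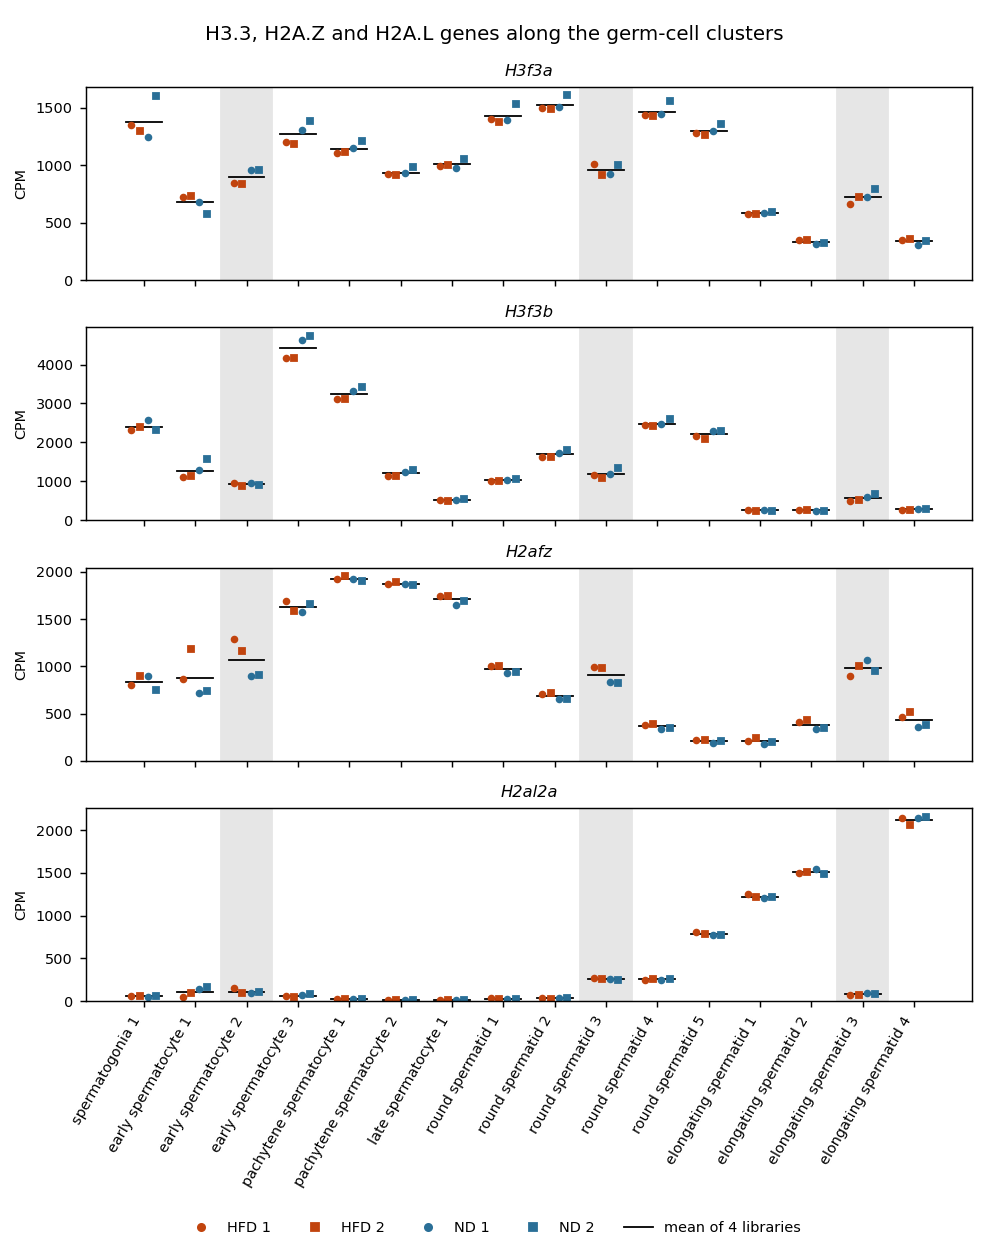
CPM (vertical axes, from 0) of the H3.3 genes, H2afz and H2al2a in each germ-cell cluster ordered by marker scores (horizontal axis), 1 point per library, with the 3 low-depth clusters shaded. H3f3b stood at 528 CPM in late spermatocyte-like cells, at 2486 in round spermatid 4 and at 258 in elongating spermatid 1, while H3f3a stayed between 582 and 1526 from late spermatocyte 1 to elongating spermatid 1.

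H3f3a shares its 5' end with an antisense gene, H3f3aos, which lies at chr1:180813776-180816859 on the plus strand. The antisense gene had 2994 UMIs against 599789 of H3f3a. Near-identical copies of H3f3a were also rare, with 516 UMIs for H3f3a-ps2, 11 for H3f3a-ps1 and 7 for H3f3c. How reads shared by copies were counted is not stated in the sources used here.

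H1f0 encodes H1.0, a linker histone typical of cells that have stopped dividing. Leydig-like cells, the steroid-making cells between the tubules, had 79.8, 90.5, 82.7 and 88.9 CPM (85.5 ± 5.05), all above early spermatocyte-like cells (61.5 ± 10.2). Spermatogonia-like cells (54.6 ± 16.1) overlapped the latter. In the pachytene-like class H1f0 averaged 9.45 ± 0.702 CPM and in elongating spermatid-like cells 1.17 ± 0.356. Among spermatocyte clusters it stood 4.52 times lower in pachytene 1 than in early spermatocyte 3, the same step at which Hist1h1t was 1.71 times higher. Sertoli-like cells had 3.3 ± 0.882 CPM.

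H2al2a encodes H2A.L.2, a short H2A variant of condensing spermatids that acts with transition proteins. Elongating spermatid-like cells had 1432, 1404, 1422 and 1418 CPM (1419 ± 11.7), and round spermatid-like cells 231 ± 6.35. Within round spermatids it stood at 29.6 ± 1.74 CPM in cluster 1, 32.8 ± 2.56 in cluster 2, 253 ± 4.84 in cluster 4 and 784 ± 15.6 in cluster 5. It reached 1223 ± 18.0, 1510 ± 24 and 2125 ± 46.4 CPM in elongating spermatid 1, 2 and 4. The low-depth elongating spermatid 3 had only 78.7 ± 8.05, although it was named for spermatid markers, and it had 980 CPM of H2afz against 208 in elongating spermatid 1. The copies H2al2b and H2al2c had 0 UMIs. The part of reads shared by the 3 copies in these values was not tested.

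Sertoli-like cells were second for H2al2a (644 ± 61.3 CPM). They also held 21753 CPM of Prm2, a protamine gene of elongating spermatids. The number of H2al2a UMIs per 1000 Prm2 UMIs was 29.6 in Sertoli-like cells, 32.3 in elongating spermatid-like cells and between 26.3 and 31.5 in the other named classes apart from round spermatids, where it was 63.6. Unnamed cells had 12.5. Per 1000 UMIs of Tnp2, a transition protein gene, H2al2a varied more, with 44.5 in elongating spermatid-like, 40.9 in Sertoli-like and up to 64.6 in the other somatic classes. The part of RNA from spermatids in the H2al2a UMIs of other classes was not tested.

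The share of cells with at least 1 UMI followed depth as well as level. In pachytene-like cells (library medians of 20949 to 25693 UMIs per cell) 75.5 ± 3.14% of cells had Hist1h1t, against 4.97 ± 1.02% of Leydig-like cells (5886 to 7151.5 UMIs). After thinning each cell to 1000 UMIs, with no cell left out for depth, the shares were 8.85 ± 0.606% and 0.944 ± 0.586%, and lymphocyte-like cells had 4.08 ± 2.90%. Thinned shares of H1f0 were 9.01 ± 0.368% in Leydig-like, 4.25 ± 1.57% in early spermatocyte-like and 0.679 ± 0.787% in lymphocyte-like cells. For H2al2a they were 68.4 ± 0.828% in elongating and 18.1 ± 0.465% in round spermatid-like cells, with 29.2 ± 2.65% in Sertoli-like and 7.88 ± 3.40% in lymphocyte-like cells, which are no spermatids. H2afx had 20.04 ± 4.26% in early spermatocyte-like, 14.6 ± 1.54% in pachytene-like and 5.97 ± 1.05% in lymphocyte-like cells, a narrower gap than in CPM.

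Among 12621 genes that reached 20 CPM in some class and are no histone genes, the 2 with the most similar pattern were named for each member by Pearson's r of log2(CPM + 1) class means over the 11 classes, which share their libraries. For Hist1h1t they were Tesmin (r = 0.96), a testis metallothionein-like gene, and Gm21269 (0.94). H2afx was closest to Sycp2 (0.98) and Hormad1 (0.97), both parts of the meiotic chromosome axis. Hist1h2aa was closest to Ticrr (0.99), a replication initiation gene, and Ythdc2 (0.97), needed for meiotic entry. Hist1h2ba paired with Tex101 (0.94) and Iqcb1 (0.93), and H2al2a with Lelp1 (1.00) and 1700001C19Rik (1.00). The closest genes were 2810002D19Rik (0.97) and Krba1 (0.97) for H2afz, Dctn5 (0.95) and Actg1 (0.95) for H2afy, Nsrp1 (0.96) and Ccdc71 (0.95) for H3f3a, Naf1 (0.96) and Dnttip1 (0.95) for H3f3b, and Uso1 (0.97) and Ubxn2a (0.97) for H1f0.

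Of 98 other histone genes, 12 had 0 UMIs and 21 reached 20 CPM in some class. The class with the highest level was elongating spermatid-like for 7 of the 21, spermatogonia-like for 5, round spermatid-like for 3 and Leydig-like for 3. Chosen after their values were seen, Hils1 and H1fnt, the linker histones of condensing spermatids, had 2379 and 1922 CPM in elongating spermatid-like cells, the class that also led for H2al2a.

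The diets were compared first in the sum of all kept cells of a library, with edgeR's quasi-likelihood test and Benjamini-Hochberg adjustment over all genes (called at an adjusted p under 0.05). Of the 10 genes, 5 were called, 3 higher and 2 lower in HFD, where 34.3% of all tested genes were called (15.3% higher and 18.9% lower). The median log2 ratio of HFD over ND was 0.04 over the 10 genes and -0.02 over all genes tested. The values below are CPM with normalised library sizes, in the order HFD 1, HFD 2, ND 1 and ND 2.

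H2afz had 1232, 1255, 1037 and 1076 CPM and rose by 0.23 on the log2 scale (SE 0.037, adjusted p = 0.000231). Hist1h1t had 40.6, 39.7, 34.8 and 34.9 CPM and rose by 0.20 (SE 0.042, adjusted p = 0.00199). H2afy had 173, 184, 158 and 162 CPM and rose by 0.15 (SE 0.042, adjusted p = 0.0104). All 3 peaked in pachytene-like cells, and both HFD libraries lay above both ND libraries for each.

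H3f3b had 1337, 1356, 1460 and 1558 CPM and fell by 0.16 on the log2 scale (SE 0.039, adjusted p = 0.00467). H2al2a had 261, 238, 292 and 274 CPM and fell by 0.18 (SE 0.048, adjusted p = 0.00898). Both HFD libraries lay below both ND libraries for each. Counted per cell in place of per UMI, the ratios were -0.01 for H3f3b and -0.02 for H2al2a and neither was called, while the median over all genes was then 0.14. Without HFD 2, or with no filter on low counts, H2afy and H2al2a were not called.

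H3f3a (log2 ratio -0.10, adjusted p = 0.0801), Hist1h2aa (0.22, adjusted p = 0.139) and H1f0 (-0.11, adjusted p = 0.303) had libraries that did not overlap between diets but were not called. Among alternatives that kept all 4 libraries, plain library totals (34.9% of all genes called), a common UMI floor (34.7%) and the replicate block (39.9%) called H3f3a. UMIs per cell (23.1%) called Hist1h2aa. Hist1h2ba and H2afx had ratios of 0.03 and 0.04 with overlapping libraries. The share of all genes without overlap in the whole testis was not counted, so non-overlap is only a description, also for the called genes.

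Shares of UMIs also differed between diets for several stages. Pachytene-like cells gave 27.8 to 30.5% of UMIs in the HFD libraries and 24.2 to 25.1% in ND, and late spermatocyte-like cells 13.9 to 14.3% and 9.23 to 10.1%. Round spermatid-like cells gave 29.7 to 30.9% in HFD and 38.3 to 38.5% in ND. Elongating spermatid-like cells, the class that led for H2al2a, gave 9.98 to 10.6% in HFD and 11.1 to 12.4% in ND. Shares of cells differed in the same directions. Round spermatid-like cells were 23.1 to 23.7% of kept cells in HFD and 28.2 to 28.5% in ND. Pachytene-like cells were 11.6 to 14.2% and 10.2 to 11.1%, and late spermatocyte-like cells 4.03 to 4.86% and 2.83 to 3.04%. Elongating spermatid-like cells were 13.8 to 14.0% and 14.6 to 15.6%. Ranges of median UMIs per cell overlapped between diets in these classes. Unnamed cells were 37.0 to 40.5% of kept cells in HFD and 34.5 to 34.9% in ND. Leydig-like cells were 1.57 to 1.74% and 2.52 to 2.58%. Ranges of median UMIs of unnamed and of Leydig-like cells did not overlap between diets. The lowest UMI count of a barcode was 1638 and 1468 in HFD 1 and HFD 2, and 1141 and 1171 in ND 1 and ND 2. Its part in shares of cells and in UMIs per cell was not tested. In sums of all cells, fewer cells of a type and less RNA per cell cannot be told apart. The whole-testis ratio was also computed, after the data had been seen and with no test. Either each cluster's level or its share of UMIs was held at its mean over libraries. A share of UMIs reflects cells and RNA per cell together, so this calculation does not separate them.

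With levels held and only cluster shares differing, H2al2a had a log2 ratio of -0.19, the size observed (-0.19 on this scale), and with shares held it had 0.01. H2afy had 0.14 with levels held and 0.01 with shares held, of 0.15 observed. Hist1h1t had 0.14 and 0.06 of 0.20 observed, and H2afz 0.16 and 0.07 of 0.23. H3f3b had -0.08 and -0.09 of -0.17 observed. H2afx had 0.14 from shares and -0.10 from levels, against 0.03 observed, and Hist1h2aa -0.01 and 0.22, against 0.21. Once cluster shares were held, the diets overlapped for H2al2a, H2afy and Hist1h1t among the 5 called genes and did not overlap for H2afz and H3f3b. Among the genes not called, they did not overlap for Hist1h2aa, H2afx and H3f3a and overlapped for Hist1h2ba and H1f0. This calculation was made for the members only, so the share of all genes without overlap is not known. Hist1h1t then had 39.9 and 36.6 CPM in HFD and 37.1 and 36.2 in ND.

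**Figure D3:**
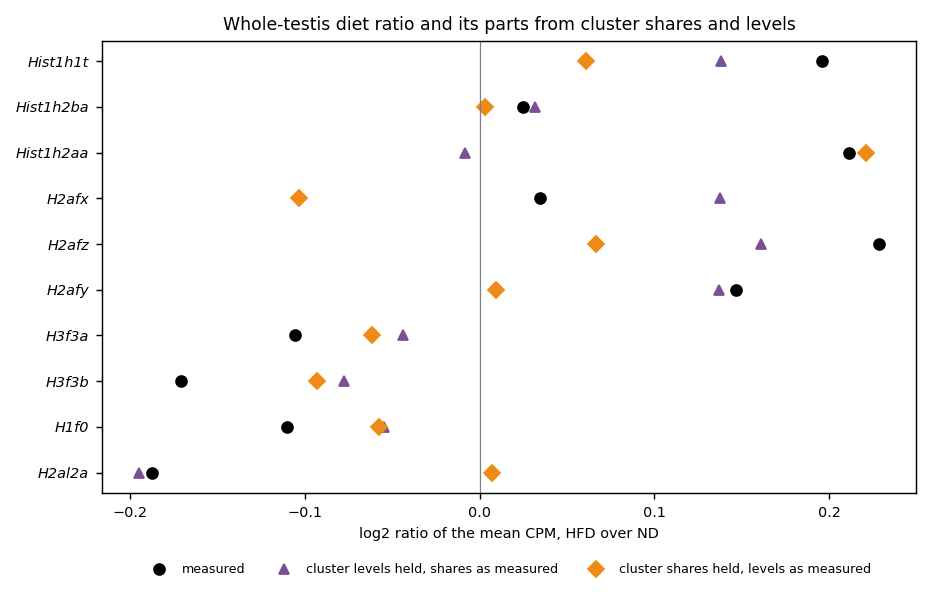
Log2 ratio of HFD over ND in the whole testis for each gene (horizontal axis), as observed and recomputed with only cluster shares differing or only cluster levels differing between libraries. The observed -0.19 of H2al2a came with -0.19 from shares and 0.01 from levels, whereas H3f3b had -0.08 and -0.09.

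Within classes, 4 of 74 tests of a gene in a class were called, and they concerned H2afz and H3f3b only. H2afz had 363, 384, 304 and 314 CPM in elongating spermatid-like cells and rose by 0.27 (SE 0.047, adjusted p = 0.000936), the 1 call among 8 genes, where 5.95% of all genes were called. Beside it, H2afy (log2 ratio 0.21, adjusted p = 0.121) and Hist1h1t (0.29, adjusted p = 0.243) had diets that did not overlap but were not called. H3f3a (-0.04), H3f3b (-0.05) and H2al2a (-0.05) were lower in HFD there, also without overlap and not called. Hist1h1t stood there at 7.44 CPM against 8.49 in Leydig-like cells. For H2afz the elongating spermatid-like class was the lowest of the 11 classes (341 CPM, against 1898 in pachytene-like cells). The part of RNA from other cells in these ratios was not tested. In round spermatid-like cells H2afz had 612, 613, 553 and 561 CPM and rose by 0.14 (SE 0.025, adjusted p = 0.0181). H3f3b had 1781, 1743, 1896 and 1994 CPM there and fell by 0.14 (SE 0.027, adjusted p = 0.0203), and 2.80% of all genes were called in this class. In pachytene-like cells H3f3b had 1921, 1993, 2150 and 2229 CPM and fell by 0.16 (SE 0.034, adjusted p = 0.00983), the 1 call among 10 genes, where 7.86% of all genes were called. The HFD and ND libraries did not overlap in any of these 4, which were picked by p-values from the same libraries. The share of all genes without overlap was not counted, so non-overlap here adds no support to any ratio.

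With the same mix of clusters in every library, an alternative that also replaced edgeR with limma-trend, H2afz in elongating spermatid-like cells kept its call (0.28, adjusted p = 0.0043). H2afz in round spermatid-like cells (0.12, adjusted p = 0.0634), H3f3b in round (-0.08, adjusted p = 0.284) and H3f3b in pachytene-like cells (-0.12, adjusted p = 0.0837) were not called then. Both round spermatid calls were also lost without HFD 1, without HFD 2 or with no filter on low counts, and that of H3f3b with limma-trend, but over 18 alternatives the ratios kept their sign, from 0.12 to 0.27 for H2afz and from -0.18 to -0.01 for H3f3b. The pachytene call was lost without HFD 1, with doublets kept, at a mitochondrial limit of 10% and at Leiden resolution 2. Counted as UMIs per cell none of the 4 was called, with ratios of 0.42 and 0.27 for H2afz in elongating and round spermatid-like cells and -0.01 and -0.05 for H3f3b in round spermatid-like and pachytene-like cells. The median over all genes was then 0.15 in elongating, 0.14 in round spermatid-like and 0.10 in pachytene-like cells.

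The filter on low counts kept all 10 genes in the pachytene-like, early spermatocyte-like and round spermatid-like classes, 9 in late spermatocyte-like, 8 in elongating spermatid-like and Leydig-like, 7 in Sertoli-like and 6 in macrophage-like and lymphocyte-like cells. Spermatogonia-like, fibroblast-like and endothelial-like cells, with under 50 cells in some library, were not tested. No member was called with edgeR in the other 6 classes tested, nor with DESeq2. These were early spermatocyte-like (0.153% of all genes called), late spermatocyte-like (0.296%), Leydig-like (5.07%), Sertoli-like (0.0101%), macrophage-like (2.19%) and lymphocyte-like cells (0.986%). At an unadjusted p under 0.05 there were 3 genes in early spermatocyte-like, 1 in late spermatocyte-like, 1 in Leydig-like and 0 in the other 3 classes. That is 3 of 10, 1 of 9 and 1 of 8 members, where 8.0%, 9.87% and 17.5% of all genes had such a p. The 3 were H2afx (333, 398, 452 and 525 CPM, log2 ratio -0.41, adjusted p = 0.108), H3f3b (-0.27, adjusted p = 0.331) and Hist1h2aa (0.52, adjusted p = 0.49). In Leydig-like cells H2afz had a ratio of 0.21 (adjusted p = 0.0825), which limma-trend called. In pachytene-like cells H2afx had a ratio of -0.12 (adjusted p = 0.0518), and 5 of 18 alternatives called it, namely limma-trend, plain library totals, the replicate block, Leiden resolution 0.5 and the fit without ND 1.

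Of the 3 genes that rose in the whole testis, Hist1h1t had a ratio of 0.03 in pachytene-like cells, its peak class, and H2afy -0.03. H2al2a had -0.05 in elongating and 0.03 in round spermatid-like cells (adjusted p = 0.515 and 0.607). H2afz was higher in HFD in 8 of 9 classes, from -0.10 to 0.27, and H3f3b lower in 8 of 9, from -0.27 to 0.05. Each was called in 2 of these classes. The classes share their 4 libraries, so the signs are not independent, and the share of all genes with such agreement was not counted.

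**Figure D4:**
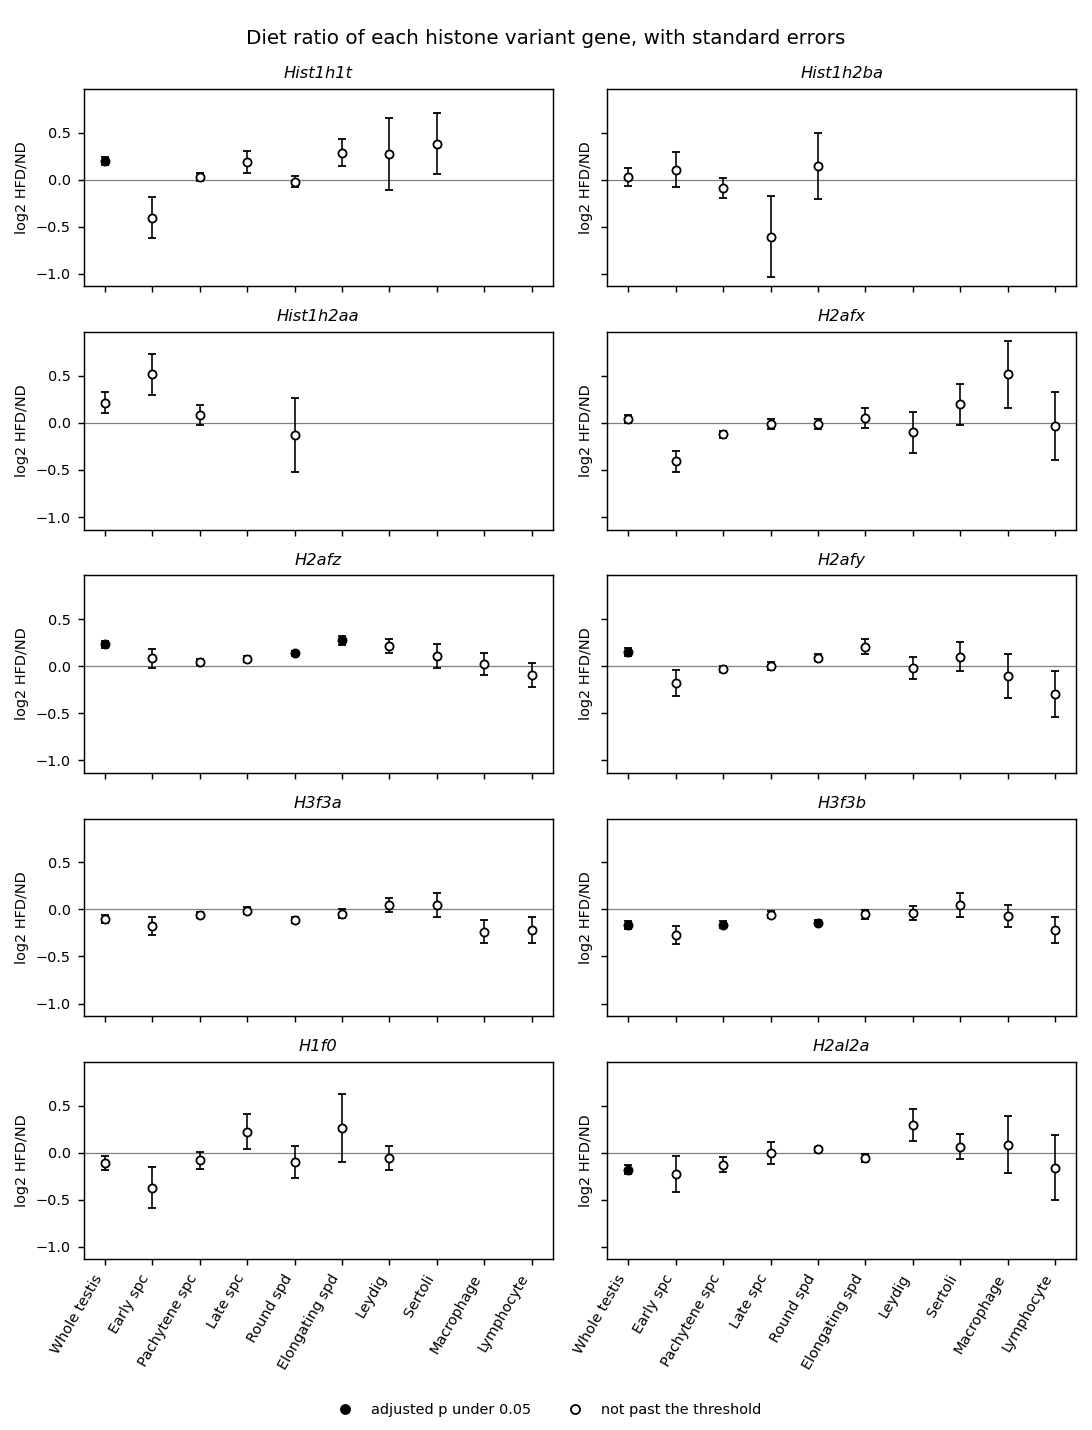
Log2 ratio of HFD over ND with its standard error (vertical axes) for each gene in the whole testis and in each class tested (horizontal axis), with filled points for ratios called at an adjusted p under 0.05. H2afz lies above 0 in 8 of 9 classes and H3f3b below 0 in 8 of 9, but all classes share the same 4 libraries.

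The 21 clusters with at least 50 cells in every library were also fitted 1 by 1, an analysis added after the data had been seen. H2afz rose in elongating spermatid 2 (0.23, where 5.53% of all genes were called), elongating spermatid 4 (0.28, 3.24%) and the low-depth round spermatid 3 (0.25, 0.319%), and its ratio was above 0 in 19 of 21 clusters. H3f3b fell in the unnamed cluster 10 (-0.21, 1.34%) and its ratio was below 0 in 18 of 21. In pachytene 1 and pachytene 2 its ratios were -0.09 and -0.12, not called (adjusted p = 0.118 and 0.0766). No other member was called in any cluster. The Leydig-like, Sertoli-like, late spermatocyte-like, macrophage-like and lymphocyte-like classes each hold 1 cluster, whose fit repeats that of the class. The clusters share their 4 libraries too, so these counts of signs are not independent. The share of all genes with such agreement was not counted.

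Whether the diet ratio differed between neighbouring germ-cell stages was tested as an interaction in 4 pairs of classes, 40 tests in all. With edgeR 0 of the 40 were called, and 7 had an unadjusted p under 0.05 (17.5%), as did 7.42% of the tests over all genes (5.32 to 10.7% by pair). The smallest adjusted p was 0.229, for H2afz, whose ratio was 0.16 higher in elongating than in round spermatid-like cells. Of all genes, 0.00549% were called from early spermatocyte-like to pachytene-like, 0% from pachytene-like to late spermatocyte-like, 0% from late spermatocyte-like to round spermatid-like and 0.0418% from round to elongating spermatid-like cells. Both classes of a pair come from the same 4 libraries, and with the library as a block 3 of the 40 were called. These were H2afz from pachytene-like to late spermatocyte-like (0.06, adjusted p = 8.41e-09), H3f3a from late spermatocyte-like to round spermatid-like (-0.12, adjusted p = 0.0402) and H2afz from round to elongating spermatid-like cells (0.16, adjusted p = 0.0142). The first of these had an SE of 0.0054, against 0.040 with edgeR and no block, where its adjusted p was 0.84. Its small p-value rests on this small estimate of the spread. Under this block 0.011%, 1.17%, 0.659% and 2.33% of all genes were called in the 4 pairs in the same order.

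The 4 lists of partner genes, chosen as the members were, were read beside the members, by counts. Histone chaperones, which carry histones to DNA, had 6 of 20 genes called higher and 2 lower in HFD in the whole testis, with a median ratio of 0.09 (-0.02 over all genes), where 34.3% of all genes were called. Nap1l4 rose by 0.31 (adjusted p = 4.64e-05). Nasp, a chaperone of H3 and H4 with a testis form, had 1738, 1730 CPM in HFD and 1455, 1479 CPM in ND, and rose by 0.24. It also rose within pachytene-like (0.20), elongating spermatid-like (0.34) and Leydig-like cells (0.44). Dek, which binds H3.3, fell by 0.16, and within elongating spermatid-like cells Npm1, nucleophosmin, rose by 0.26. For the genes named from these lists and from the other histone genes, 30 ratios in all, the plain log2 ratio of mean CPM was also taken without each library in turn, after the data had been seen and with no test. None changed sign, and 10 moved by over 1.5 times, each of which is given below.

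The complexes that exchange H2A for H2A.Z had 5 of 10 genes called, all higher in HFD (median 0.14), where 15.3% of all genes were called higher. Kat5, the acetyltransferase of one complex, rose by 0.30 and Ep400, its ATPase, by 0.22. Ep400 also rose in elongating spermatid-like cells (0.29), where H2afz rose, the 1 of 10 called there (5.95% of all genes). Znhit1 rose in pachytene-like cells (0.17), again 1 of 10 (7.86% of all genes). In round spermatid-like cells, where H2afz was called too, 0 of 10 were called (2.80% of all genes). The ratio of Ep400 in elongating spermatid-like cells was 0.17 without HFD 2, and that of Znhit1 0.09 without ND 2. The list around H2AX phosphorylation and the sex body had 5 of 11 higher and 2 lower (median 0.12), against 15.3% and 18.9% of all genes. Atr, the kinase of sex-chromosome H2AX, rose by 0.25 and Setdb1 by 0.21, while Topbp1, an activator of ATR, fell by 0.16 in pachytene-like cells.

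Proteins of histone removal and replacement went the other way in the whole testis, with 1 of 11 higher and 7 lower (median -0.24), against 15.3% and 18.9% of all genes. Cdyl, a chromodomain protein, fell by 0.33 and Chd5, a remodeler of spermatid chromatin, by 0.26, while Epc1 rose by 0.14. Within elongating spermatid-like cells 1 of 11 was called (5.95% of all genes), Cdyl, which fell by 0.21. In classes before their own stage, protamine genes were called lower in HFD with ND 2 as the highest library. Prm2 had 2900 and 2342 CPM in HFD and 3070 and 4217 in ND in early spermatocyte-like cells and fell by 0.48, with a ratio of -0.23 without ND 2. In pachytene-like cells Prm3 had 66.7 and 66.9 CPM in HFD and 77.0 and 98.7 in ND and fell by 0.40, with -0.20 without ND 2. Prm1 had 795 and 730 CPM in HFD and 802 and 1081 in ND there and fell by 0.30, but its ratio was -0.07 without ND 2 and -0.50 without ND 1. In those classes H2al2a stood at 26.3 and 29.4 UMIs per 1000 of Prm2. Somatic classes had 28.6 to 31.5, apart from endothelial-like cells with 26.3 from only 5 H2al2a UMIs. The part of RNA from spermatids in these protamine values was not tested. The part of the cluster shares given above in the whole-testis calls of these lists was not tested.

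Of the 98 other histone genes 54 could be tested in the whole testis, with 4 higher and 11 lower, where 15.3% and 18.9% of all genes were called higher and lower. H2afj, an H2A variant led by Leydig-like cells, rose by 0.17, and by 0.20 in pachytene-like cells (0.11 and 0.13 without HFD 1). Hist1h4a fell by 0.49 and Hist1h2bp by 0.40, both highest in round spermatid-like cells, and Hist1h4a fell by 0.37 within elongating spermatid-like cells. ND 2 was again the highest library in these 3, and without it Hist1h2bp had a ratio of -0.21 and Hist1h4a -0.24 within elongating spermatid-like cells. The spermatid linker histone Hils1 fell by 0.34 in pachytene-like, 0.10 in round and 0.22 in elongating spermatid-like cells, the last from 2533 and 2602 CPM in ND to 2226 and 2187 in HFD. In pachytene-like cells it had 51.4 and 51.6 CPM in HFD and 56.5 and 73.9 in ND, and a ratio of -0.13 without ND 2 and -0.52 without ND 1. Its pachytene-like level (58.4 CPM) lay below that of every somatic class (137 CPM in Leydig-like to 715 in Sertoli-like cells). H2afv, the second H2A.Z gene, fell by 0.17 in pachytene-like cells, where H2afz had a ratio of 0.04 and was not called.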

How the data were processed

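The authors deposited UMI counts, not normalised, in 1 sparse matrix of genes by cells per library, whose layout came from software version 3.0.2 per the file headers. The genome build was mm10, per the submitters' processing notes. The aligner, annotation and handling of strand are not given in the sources used here. All 55450 gene identifiers matched GENCODE M21 (GRCm38), which gave the coordinates. A dense copy of each table was not used here.

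Barcodes with under 200 genes or over 20% mitochondrial UMIs (13 to 42 per library) were removed, and Scrublet (expected rate 0.1) called 421 to 853 doublets per library, which were left out. Cells were clustered with scanpy 1.11.5 (2000 variable genes without histone genes, 30 principal components, 15 neighbours, Leiden resolution 1, no batch correction). A cluster was named from its highest marker score (at least 0.9). It stayed unnamed where its depth was low with no marker among its top 10 genes, or where markers of another class outnumbered its own there. These naming rules were chosen after the clusters had been seen.

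Counts were summed per library and class and tested with edgeR 4.0.16 (filterByExpr, TMM, quasi-likelihood, R 4.3.3) in classes with at least 50 cells in every library, with Benjamini-Hochberg adjustment over all genes of the fit. The edgeR fit was also run on simulated pachytene-like and macrophage-like counts, with changes larger than any member ratio called here. That run does not bear on ratios as small as these. The alternatives were DESeq2 1.42.0, limma-trend 3.58.1 on log2(CPM + 1), other scalings and filters, a replicate block, leaving out each library, and other clusterings. The depths of 143748262 to 154221188 UMIs per library limit precision mainly for Hist1h2ba, Hist1h2aa and H1f0.

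The members and lists were chosen with earlier results of these data known. The text names all 10 members and, from each list and from the other histone genes, the 2 genes per direction and comparison with the largest called ratio, with diets not overlapping and at least 20 CPM.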

Additional observations from a re-analysis of the deposited data

How the results depend on the processing

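Of the calls, Hist1h1t and H2afz in the whole testis kept theirs under all 15 alternatives with a test (0.19 to 0.36 and 0.20 to 0.39). With cluster shares held, with no test, the diets overlapped for Hist1h1t. UMIs per cell moved the median of all genes by 0.10 to 0.37 in the whole testis and in 7 of the classes. None of these alternatives reversed a called ratio, except that with cluster shares held, a calculation chosen after seeing the data, H2al2a in the whole testis turned to 0.00717. In the whole testis 5 members were called, against 3 with no low-count filter and 3 to 6 without single libraries. The share of all genes called moved from 34.3% to 15.3% and to 19.4 to 32.2%.

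In pachytene-like cells 1 member was called, against 2 with limma-trend, plain library totals or Leiden resolution 0.5, 0 with UMIs per cell, a mitochondrial limit of 10%, doublets kept, Leiden resolution 2 or the same cluster mix, and 0 to 4 without single libraries. Of all genes 7.86% were called, against 7.63 to 8.49% in the first 3, 0.2 to 2.58% in the next 5 and 2.83 to 17.4% without single libraries. The 4 came without ND 1, at 17.4%. In round spermatid-like cells 2 were called, against 1 with limma-trend, 0 with UMIs per cell, no filter or the same cluster mix, and 0 to 3 without single libraries (3 without ND 1). Of all genes 2.80% were called, against 2.65%, 1.18%, 0.0374%, 0.471% and 0.692 to 12.2% (12.2% without ND 1), in that order. In elongating spermatid-like cells 1 was called, against 0 with UMIs per cell and 2 at Leiden resolution 0.5 or 2 (of all genes 5.95%, 1.45%, 10.5% and 3.07%). Against 0 called, there was 1 in early spermatocyte-like cells without ND 1 (0 to 1), in late spermatocyte-like cells with a mitochondrial limit of 10% or Leiden resolution 2, and in Leydig-like cells with limma-trend, plain library totals or doublets kept. The shares of all genes there were 0.313% (from 0.153%), 1.16% and 6.32% (from 0.296%), and 4.73%, 5.05% and 13.7% (from 5.07%). The cause was not tested.

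With the replicate numbers as a block, 2 members were called in pachytene-like cells in place of 1, 3 in round spermatid-like cells in place of 2 and 6 in the whole testis in place of 5. Of all genes 13.8%, 5.93% and 39.9% were called then, against 7.86%, 2.80% and 34.3%. Same-numbered libraries did not deviate together (correlations of -0.08 to 0.09), so the numbers were not taken as pairs. With the library as the replicate block in the interaction tests, 1 member was called in each of 3 pairs, as given in the report, where the share of all genes called also rose.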
